A study of Homo sapiens with 6 samples.

Results

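The dual-specificity MAP kinase phosphatases described here are 10 genes, DUSP1, DUSP2, DUSP4, DUSP5, DUSP6, DUSP7, DUSP8, DUSP10, DUSP14 and DUSP16. They were taken by symbol from the table of read counts per gene, and all 10 matched a row among its 58051 Ensembl gene IDs. The cells were A375, an established human melanoma line that carries an activating BRAF mutation. The TGFB1 group (3 libraries) received the cytokine TGFB1 at 10 ng/mL during 2 h that followed 2 h of starvation. The Vehicle group (3 libraries) was starved alike and received the solvent, 4 mM HCl and 1 mg/mL BSA, over the same time. The design text calls the libraries technical triplicates of 1 experiment in 1 cell line, so p-values measure the spread between these libraries and not that between independent cultures.

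MAP kinases (ERK, JNK and p38) are switched on when a threonine and a tyrosine in their activation loop are phosphorylated, and phosphatases of this family switch them off by removing both phosphates. Many of the genes are themselves transcribed in response to MAP kinase activity, which makes them negative feedback regulators, and in melanoma with mutant BRAF the transcripts of DUSP4 and DUSP6 are commonly read as output of the ERK branch. The family is usually grouped by location and target. DUSP1, DUSP2, DUSP4 and DUSP5 encode inducible nuclear enzymes, DUSP6 and DUSP7 encode cytoplasmic enzymes that prefer ERK, and DUSP8, DUSP10 and DUSP16 encode enzymes that prefer JNK and p38. DUSP14 encodes a small enzyme that lacks the amino-terminal kinase-binding domain of the others and is classed as atypical.

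The shared chemistry of these enzymes is visible in the letters that encode their active site. The signature searched for is a cysteine, which attacks the phosphate, and an arginine, which holds it, set a fixed distance apart in a short loop. The search also required a histidine directly before the cysteine. The coding letters around that loop are shown for 9 of the genes. Genes outside the members were not searched for it. They come from the longest annotated coding sequence of each gene in GENCODE 29, read 5′ to 3′, and the capitals mark the cysteine and arginine codons.
DUSP1: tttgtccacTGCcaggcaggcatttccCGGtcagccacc
DUSP2: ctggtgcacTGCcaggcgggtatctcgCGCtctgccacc
DUSP5: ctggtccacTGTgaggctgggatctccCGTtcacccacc
DUSP6: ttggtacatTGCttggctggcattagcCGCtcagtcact
DUSP7: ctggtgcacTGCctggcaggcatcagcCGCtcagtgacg
DUSP8: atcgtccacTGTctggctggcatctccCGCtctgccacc
DUSP10: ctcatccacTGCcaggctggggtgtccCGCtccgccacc
DUSP14: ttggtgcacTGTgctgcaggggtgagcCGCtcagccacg
DUSP16: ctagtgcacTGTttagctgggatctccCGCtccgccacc

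Each of these 9 coding sequences held the signature once. Of the 39 bases shown, 17 were the same in all 9 genes. Part of this count was fixed in advance, as the search required the histidine, cysteine and arginine codons. The same holds for the shares between pairs. Pairs of genes shared between 61.5% and 82.1% of these bases, with a median of 71.8% over the 36 pairs. DUSP8 and DUSP16 were the closest pair at 82.1%, and DUSP6 and DUSP7 shared 79.5%. The same 79.5% was shared by DUSP5 with DUSP16, and by DUSP8 with each of DUSP1, DUSP2, DUSP5 and DUSP10. The coding sequences differed more in length, with 198 codons in DUSP14, 381 in DUSP6, 419 in DUSP7 and 665 in DUSP16.

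The libraries held 32523299, 34895075 and 32458753 counts with TGFB1, and 24713894, 30864319 and 34374668 with Vehicle. Vehicle replicate 1 was both the shallowest library and the one farthest from the rest on the first principal component, at -37.1, against -13.4 and -8.25 for the other Vehicle libraries and 17.7 to 20.7 for those with TGFB1. Of 9 direct SMAD target genes 8 rose, against 2.43% of all tested genes. That list was chosen with earlier results of these data known, so the count is a description. Among the 8 was SMAD7, which encodes an inhibitor of TGF-beta receptors. It stood at 61.2 ± 4.02 CPM with TGFB1 and 9.26 ± 1.87 CPM with Vehicle (SD, n = 3 each). CPM is the count scaled to the library total in the usual way. The summed level of 11 melanoma and melanocyte markers ran from 576 to 598 CPM with TGFB1 and from 589 to 615 CPM with Vehicle. Of the 9 tested, MITF alone passed the test, against 3.31% of all tested genes. MITF stood at 53.5 ± 1.58 CPM with TGFB1 and 62.4 ± 2.14 CPM with Vehicle (log2 fold change -0.23, adjusted p = 0.0355), and its part in the DUSP results was not tested. This call was lost with limma-voom (adjusted p = 0.0537), with no filter on low counts (0.0854) and without TGFB1 replicate 1, TGFB1 replicate 3, Vehicle replicate 1 or Vehicle replicate 2 (0.107 to 0.229). MCAM and CSPG4 were abundant, while SOX10 had 0 counts in all 6 libraries and the pigment cell genes PMEL, MLANA, TYR and TYRP1 averaged under 1 CPM in both groups. Overlap of SOX10 exons with other genes was not checked, and the counting mode is not given. Its 0 counts therefore need not mean that its RNA was absent. The summed level of 6 fibroblast markers ran from 17.1 to 17.7 CPM with TGFB1 and from 18.7 to 22.7 CPM with Vehicle. That of 6 leukocyte markers was 5.73 to 6.65 CPM with TGFB1 and 6.31 to 7.68 CPM with Vehicle. That of 4 endothelial markers was 15.1 to 16.1 CPM with TGFB1 and 13.1 to 18.2 CPM with Vehicle, and that of 6 keratinocyte markers 66.7 to 69.7 CPM with TGFB1 and 50.7 to 70.5 CPM with Vehicle. Most of the keratinocyte sum came from KRT10, at 51.1 ± 3.79 CPM with TGFB1 and 44.4 ± 8.58 CPM with Vehicle, and KRT14, at 16.5 ± 2.03 CPM with TGFB1 and 14.5 ± 1.68 CPM with Vehicle, while KRT5, KRT1, CDH1 and TP63 averaged under 1 CPM in both groups. KRT10 and KRT14 did not pass edgeR's test (adjusted p = 0.515 and 0.579). Without Vehicle replicate 3, KRT10 did (log2 fold change 0.34, adjusted p = 0.00294). The fibroblast sum, whose 2 most abundant genes were LUM and PDGFRB, was thus lower with TGFB1 without overlap. None of its 4 tested genes passed the test, with LUM at a log2 fold change of -0.32 and PDGFRB at -0.03. COL1A1 and COL1A2 were not tested, at means of 0.17 and 0.16 CPM with TGFB1 and 0.093 and 0.14 CPM with Vehicle. The part of this sum in the DUSP results was not tested either.

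The family split by gene. DUSP4, DUSP6 and DUSP5 fell with TGFB1, DUSP7 rose, 5 other tested genes did not pass the test, and DUSP8 had too few reads to be tested. The threshold was 0.05 on p-values from edgeR's quasi-likelihood fit, adjusted by the Benjamini-Hochberg method across every tested gene. It was passed by 4 of the 9 tested members, against 3.31% of all 16690 genes tested. By direction, 1 of 9 was higher, against 2.43% of all tested genes, and 3 of 9 were lower, against 0.887%. For 5 of the 9, every TGFB1 library lay on the same side of every Vehicle library, against 16.4% of all tested genes. The members were chosen with earlier results of these data known, so these shares are a description. The median log2 fold change over the 9 was -0.14, beside -0.01 over all tested genes. The tested members ranged from -0.45 for DUSP4 to 0.50 for DUSP7 on that scale. In bulk RNA, fewer cells that transcribe a gene and less RNA per cell cannot be told apart.

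**Figure D1:**
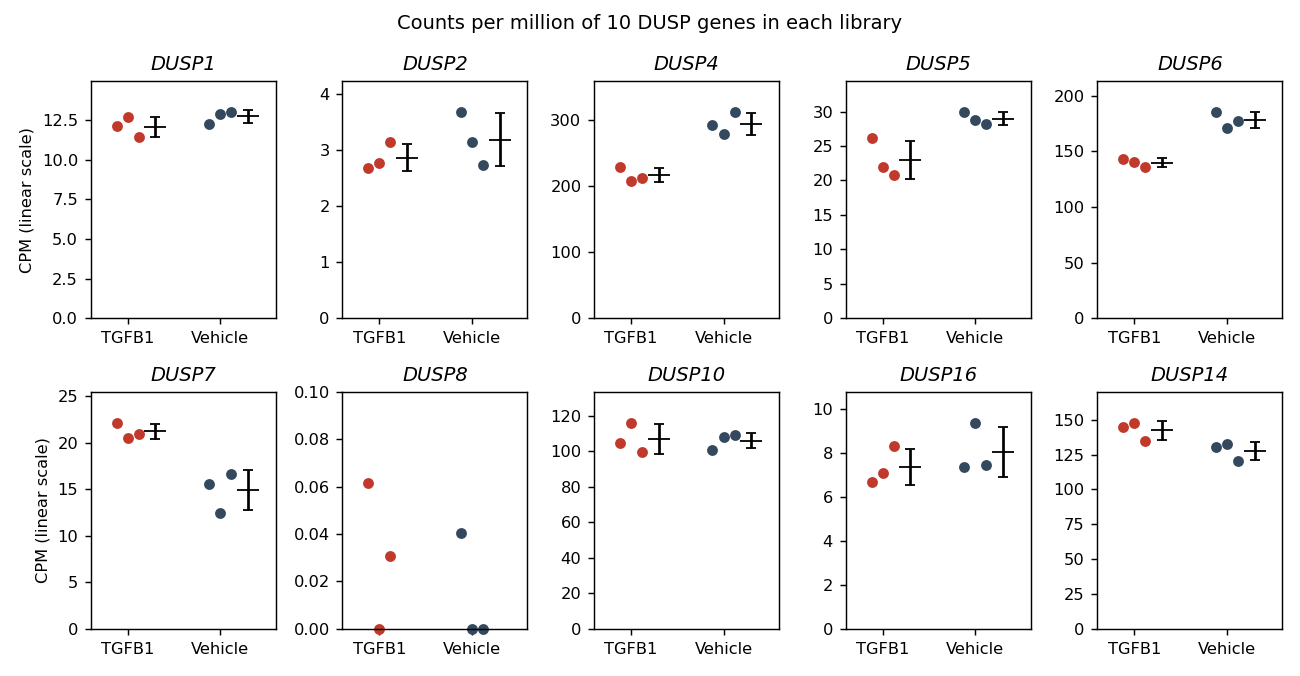
CPM of each gene in each library on linear axes that start at 0, with the 3 TGFB1 libraries left of the 3 Vehicle libraries; black marks are the mean and SD, left out for DUSP8. DUSP4, DUSP5 and DUSP6 lie lower with TGFB1 and DUSP7 higher, without overlap between the groups, and DUSP8 has at most 2 reads in a library.

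Among the genes for nuclear enzymes, DUSP4 carried the most reads and fell furthest. It encodes a phosphatase of ERK and JNK and lies on the minus strand of chromosome 8 at 29333064 to 29350668 (GRCh38, GENCODE 29). DUSP4 stood at 229, 208 and 213 CPM in TGFB1 replicates 1, 2 and 3, against 292, 278 and 312 CPM in Vehicle replicates 1, 2 and 3. The highest TGFB1 library was thus well below the lowest Vehicle library. The means were 216 ± 10.8 CPM with TGFB1 and 294 ± 17.1 CPM with Vehicle (SD, n = 3 each). DUSP4 fell by 26.8%, with a 95% interval from -31.8% to -21.4%. On the log2 scale the difference was -0.45 ± 0.05 (SE), with an adjusted p = 6.4e-08. Between 6905 and 10726 reads per library stood behind these values.

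DUSP5, whose product is a nuclear phosphatase specific to ERK, showed a smaller and less stable fall. It lies on the plus strand of chromosome 10 at 110497838 to 110511544. It stood at 26.2, 22.0 and 20.9 CPM in TGFB1 replicates 1, 2 and 3, against 29.9, 28.8 and 28.2 CPM in Vehicle replicates 1, 2 and 3. The groups did not overlap, but TGFB1 replicate 1 lay closer to the Vehicle libraries than to TGFB1 replicate 3. DUSP5 fell by 21.0%, with a 95% interval from -30.4% to -10.4% (log2 fold change -0.34 ± 0.09 (SE), adjusted p = 0.0225). The call was lost without TGFB1 replicate 2 (adjusted p = 0.118), TGFB1 replicate 3 (0.23), Vehicle replicate 1 (0.0835) or Vehicle replicate 2 (0.111), with log2 fold changes from -0.34 to -0.27. Without TGFB1 replicate 1 it was -0.44 (adjusted p = 0.00858).

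Neither of the other genes for nuclear enzymes passed the test. DUSP1, the classic immediate early member that acts on p38 and JNK as well as ERK, stood at 12.1, 12.7 and 11.4 CPM with TGFB1, against 12.3, 12.9 and 13.0 CPM with Vehicle, and the groups overlapped. Its log2 fold change was -0.08 ± 0.11 (SE, adjusted p = 0.851), with a 95% interval from -19.3% to 10.3%. DUSP2, known mainly from activated immune cells, was the lowest tested member, at 2.68, 2.78 and 3.14 CPM with TGFB1, against 3.68, 3.14 and 2.73 CPM with Vehicle. Its 87 to 102 reads per library left a wide 95% interval from -33.6% to 21.4% around its log2 fold change, -0.15 ± 0.21 (SE), with adjusted p = 0.856. That fold change was -0.04 without Vehicle replicate 1 and -0.27 without Vehicle replicate 3. A fall in DUSP2 as large as that of DUSP5 was therefore not detectable at this depth.

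**Figure D2:**
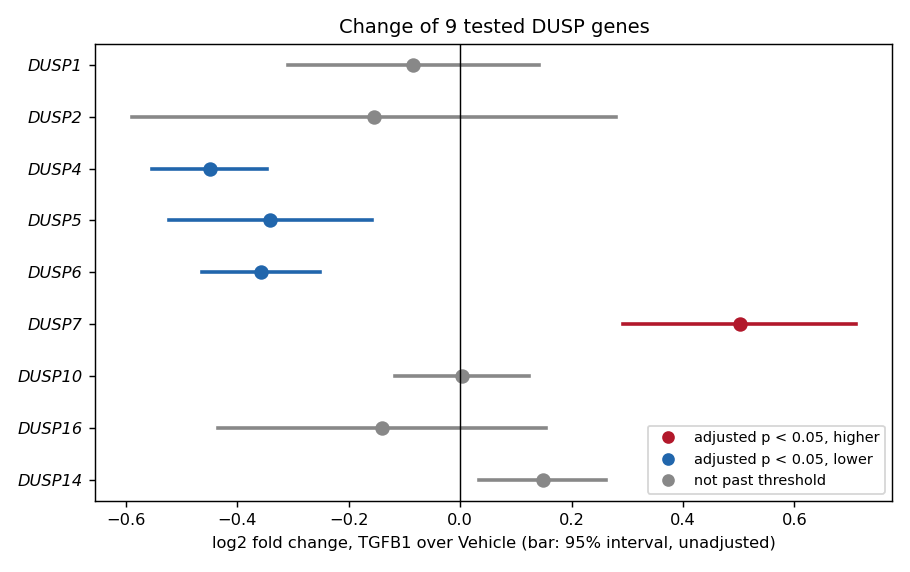
Log2 fold change of TGFB1 over Vehicle for the 9 tested genes (points) with 95% intervals that are not adjusted for the number of genes tested (bars); colours mark genes past an adjusted p of 0.05. DUSP4, DUSP5 and DUSP6 lie at -0.45, -0.34 and -0.36, DUSP7 lies at 0.50, and the interval of DUSP10 is narrow around 0.

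The pair of genes for cytoplasmic ERK phosphatases went in opposite directions. DUSP6 (minus strand of chromosome 12, 89347232 to 89353271) stood at 143, 140 and 135 CPM in TGFB1 replicates 1, 2 and 3, against 185, 171 and 177 CPM in Vehicle replicates 1, 2 and 3. All 3 TGFB1 libraries were below all 3 Vehicle libraries. DUSP6 fell by 21.9%, with a 95% interval from -27.4% to -16.0% (log2 fold change -0.36 ± 0.05 (SE), adjusted p = 9.34e-06), to 140 ± 3.96 CPM with TGFB1, against 178 ± 7.14 CPM with Vehicle (SD, n = 3 each). DUSP7 (minus strand of chromosome 3, 52048919 to 52056550) stood at 22.2, 20.5 and 21.0 CPM in TGFB1 replicates 1, 2 and 3, against 15.6, 12.5 and 16.6 CPM in Vehicle replicates 1, 2 and 3. Here all 3 TGFB1 libraries were above all 3 Vehicle libraries, and the Vehicle libraries varied more among themselves, with a coefficient of variation of 14.4%, against 4.01% with TGFB1. DUSP7 was 1.42-fold higher with TGFB1 (log2 fold change 0.50 ± 0.10 (SE), adjusted p = 0.00171), with a 95% interval from 22.5% to 63.7% higher. Without Vehicle replicate 2, the lowest Vehicle library, its log2 fold change was 0.40 (adjusted p = 0.0423).

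The counts of DUSP6 carry a limit that those of DUSP4, DUSP5 and DUSP7 do not. Of its 4632 exonic bases, 1875 (40.5%) lie under exons of AC024909.2, a gene annotated on the other strand, and the strand setting of the counting is not given in the sources used here. AC024909.2 itself had 41 to 64 reads with TGFB1 and 43 to 60 with Vehicle, against 4395 to 6092 reads per library for DUSP6, and its log2 fold change was -0.17 ± 0.28 (SE, adjusted p = 0.892). Reads in shared exons could be lost from both genes or given to either. The exons of the other 9 members overlap no exon of another gene annotated in GENCODE 29. Copies and neighbours named after members were barely read, with 1 to 79 reads over all 6 libraries for the pseudogenes DUSP5P1, DUSP5P2, DUSP8P1 and DUSP8P5 and for DUSP5-DT, which is transcribed away from DUSP5.

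The genes for enzymes that prefer JNK and p38 showed no change past the test. DUSP10 was an abundant member, at 105, 116 and 99.8 CPM with TGFB1, against 101, 108 and 109 CPM with Vehicle. The groups overlapped throughout. Its log2 fold change was 0.0040 ± 0.06 (SE, adjusted p = 0.993), with a 95% interval from -7.75% to 9.0%, so a change as large as those of DUSP4, DUSP6 or DUSP7 lies outside that interval. DUSP16 stood at 6.70, 7.11 and 8.32 CPM with TGFB1, against 7.36, 9.40 and 7.45 CPM with Vehicle. Its 182 to 290 reads per library left the log2 fold change at -0.14 ± 0.14 (SE), with adjusted p = 0.786 and a 95% interval from -26.0% to 11.3%. Single libraries weighed heavily, as the value was -0.0054 without Vehicle replicate 2 and -0.23 without TGFB1 replicate 3. DUSP8, best known from brain and heart, had 2, 0 and 1 reads in TGFB1 replicates 1, 2 and 3, against 1, 0 and 0 reads in Vehicle replicates 1, 2 and 3, and was removed by the filter on low counts.

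DUSP14 missed the threshold, although its groups did not overlap. This small atypical phosphatase stood at 145, 148 and 134 CPM in TGFB1 replicates 1, 2 and 3, against 130, 132 and 121 CPM in Vehicle replicates 1, 2 and 3. Its lowest TGFB1 library was only slightly above its highest Vehicle library. The log2 fold change was 0.15 ± 0.06 (SE), with an unadjusted p = 0.0131 and an adjusted p = 0.203 from edgeR's quasi-likelihood test. The 95% interval, from 2.33% to 20.0% higher, is not adjusted for the number of genes tested.

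**Figure D3:**
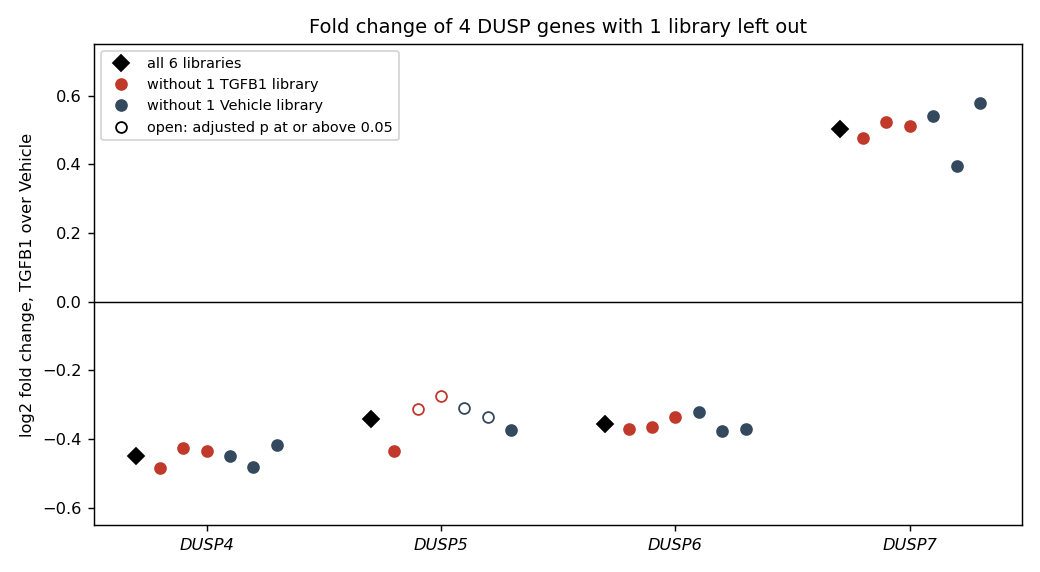
Log2 fold change of TGFB1 over Vehicle for the 4 genes past the threshold, with all 6 libraries (diamond) and with each library left out in turn (circles, red for TGFB1 and dark grey for Vehicle); open symbols have an adjusted p of 0.05 or more. DUSP4, DUSP6 and DUSP7 stay past the threshold in all 6 omissions and DUSP5 in 2 of 6.

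Read counts grow with transcript length, so levels were compared between genes as RPKM, CPM per kilobase of annotated exon. On that scale DUSP14 was the most abundant member in both groups, at 56.9 ± 2.79 RPKM with TGFB1 and 51.1 ± 2.53 RPKM with Vehicle (SD, n = 3 each). With TGFB1 it was followed by DUSP10 at 36.7 ± 2.86 RPKM, DUSP6 at 30.1 ± 0.856 RPKM and DUSP4 at 29.8 ± 1.49 RPKM, of which DUSP6 and DUSP4 did not differ beyond their spread. With Vehicle the order was DUSP4 at 40.5 ± 2.35 RPKM, DUSP6 at 38.4 ± 1.54 RPKM and DUSP10 at 36.4 ± 1.52 RPKM, and neighbours in this order lay within the sum of their SDs. The remaining genes kept 1 order in both groups. DUSP5 had a level of 8.80 ± 1.07 RPKM with TGFB1 and 11.1 ± 0.345 RPKM with Vehicle, and DUSP1 one of 5.98 ± 0.307 RPKM with TGFB1 and 6.30 ± 0.199 RPKM with Vehicle. DUSP7 had 3.76 ± 0.151 RPKM with TGFB1 and 2.64 ± 0.379 RPKM with Vehicle, above DUSP2 at 1.48 ± 0.127 RPKM with TGFB1 and 1.65 ± 0.246 RPKM with Vehicle. DUSP16, at 1.29 ± 0.147 RPKM with TGFB1 and 1.41 ± 0.201 RPKM with Vehicle, lay within the spread of DUSP2, and DUSP8 averaged 0.00667 RPKM with TGFB1 and 0.00292 RPKM with Vehicle. The order depends on the length used. With the longest transcript of each gene, DUSP4 stood above DUSP6 beyond their spread in both groups, at 39.1 ± 1.96 RPKM against 31.7 ± 0.901 RPKM with TGFB1 and at 53.1 ± 3.08 RPKM against 40.4 ± 1.62 RPKM with Vehicle. On that length DUSP14 came to 64.5 ± 3.16 RPKM with TGFB1 and 57.9 ± 2.87 RPKM with Vehicle, and in the Vehicle group its gap to DUSP4 was smaller than the sum of their SDs. DUSP7 came to 6.35 ± 0.255 RPKM with TGFB1 and 4.46 ± 0.641 RPKM with Vehicle, which with TGFB1 put it within the spread of DUSP1.

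The makeup of the family shifted accordingly. DUSP4 and DUSP6 together made up 34.9%, 32.9% and 35.05% of the members' summed RPKM in TGFB1 replicates 1, 2 and 3, against 42.1%, 40.0% and 42.8% in Vehicle replicates 1, 2 and 3. DUSP14 took a share of 32.5 ± 0.461% with TGFB1 and 26.97 ± 1.41% with Vehicle, and DUSP7 one of 2.15 ± 0.104% with TGFB1 and 1.39 ± 0.194% with Vehicle (SD, n = 3 each). These are shares of a whole, so a fall in 1 gene raises the shares of the others. The ratio of DUSP6 to DUSP7, both genes for cytoplasmic ERK phosphatases, was 7.88, 8.33 and 7.87 in TGFB1 replicates 1, 2 and 3, against 14.5, 16.7 and 13.0 in Vehicle replicates 1, 2 and 3. The size of this ratio also rests on the length used, and with the longest transcript it was 4.91, 5.18 and 4.90 in TGFB1 replicates 1, 2 and 3, against 9.005, 10.4 and 8.10 in Vehicle replicates 1, 2 and 3. The summed RPKM of all 10 genes ran from 167 to 179 with TGFB1 and from 188 to 190 with Vehicle.

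**Figure D4:**
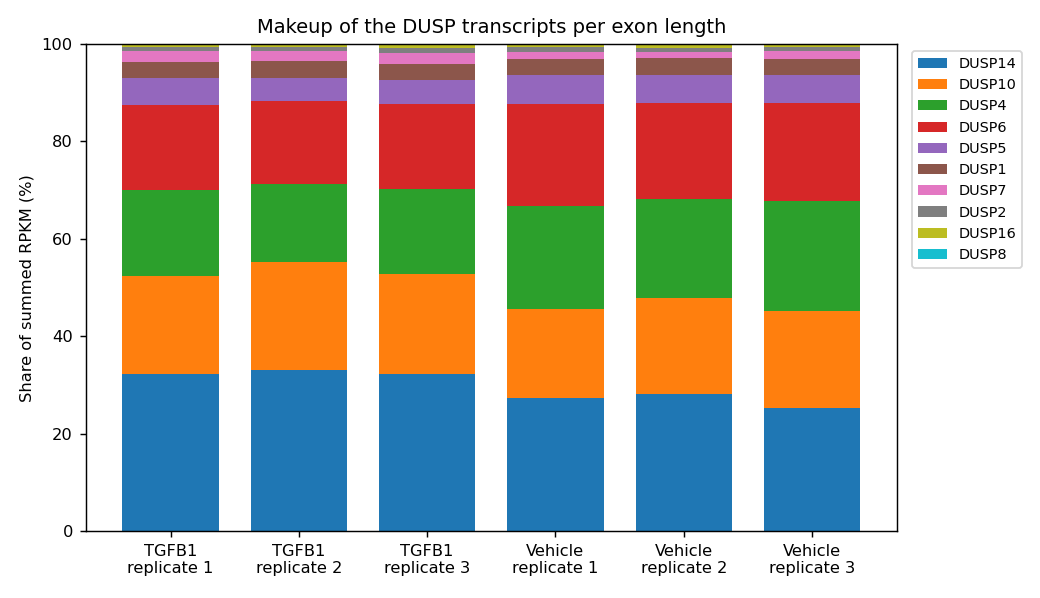
Share of each gene in the summed RPKM of the 10 genes, in percent, with 1 stacked bar per library and the TGFB1 libraries left of the Vehicle libraries. The combined band of DUSP4 and DUSP6 takes 32.9% to 35.05% with TGFB1 and 40.0% to 42.8% with Vehicle.

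Other genes of MAP kinase signalling were set beside the family. DUSP9, the remaining typical member of the cytoplasmic ERK group, stood at 15.1 ± 1.85 CPM with TGFB1 and 14.1 ± 1.36 CPM with Vehicle (SD, n = 3 each) and did not pass the test (log2 fold change 0.10, adjusted p = 0.81). Of 11 tested atypical dual-specificity phosphatase genes none passed, against 3.31% of all tested genes. The 2 most abundant were DUSP12, which encodes a zinc-binding phosphatase (log2 fold change 0.04), and DUSP11, which encodes an RNA phosphatase (0.10). Against 2.43% of all tested genes, 1 of 6 tested genes for other phosphatases that act on MAP kinases rose. It was PPM1A, which encodes a serine/threonine phosphatase of p38 and of SMAD proteins, at 42.6 ± 1.77 CPM with TGFB1 and 35.4 ± 2.20 CPM with Vehicle (log2 fold change 0.26, adjusted p = 0.0387). This call was lost with upper-quartile scaling (adjusted p = 0.0572) and when any library but Vehicle replicate 3 was left out (0.0657 to 0.246).

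Few genes for the kinases upstream of and targeted by these phosphatases passed the test, and few of all tested genes did (3.31%). None of 11 tested genes of the ERK branch passed, at log2 fold changes from -0.13 to 0.18. On a list this short, none past the test is close to that share. Of 17 tested genes of the JNK and p38 branches 1 rose, against 2.43% of all tested genes. It was MAP3K1, which encodes an upstream kinase of JNK, at 107 ± 4.88 CPM with TGFB1 and 76.8 ± 1.48 CPM with Vehicle (log2 fold change 0.46 ± 0.06 (SE), adjusted p = 2.61e-07).

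Other genes read as output of ERK moved in both directions. Of 13 tested, 3 rose, against 2.43% of all tested genes, and 1 fell, against 0.887%. The median log2 fold change over the 13 was 0.13. The feedback inhibitor genes SPRY2 (log2 fold change 0.51), SPRY4 (0.75) and the immediate early gene IER3 (0.57) rose, while PHLDA1, which encodes a pleckstrin homology-like domain protein, fell (-0.28). PHLDA1 stood at 284 ± 18.0 CPM with TGFB1 and 342 ± 24.5 CPM with Vehicle (SD, n = 3 each, adjusted p = 0.000469).

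**Figure D5:**
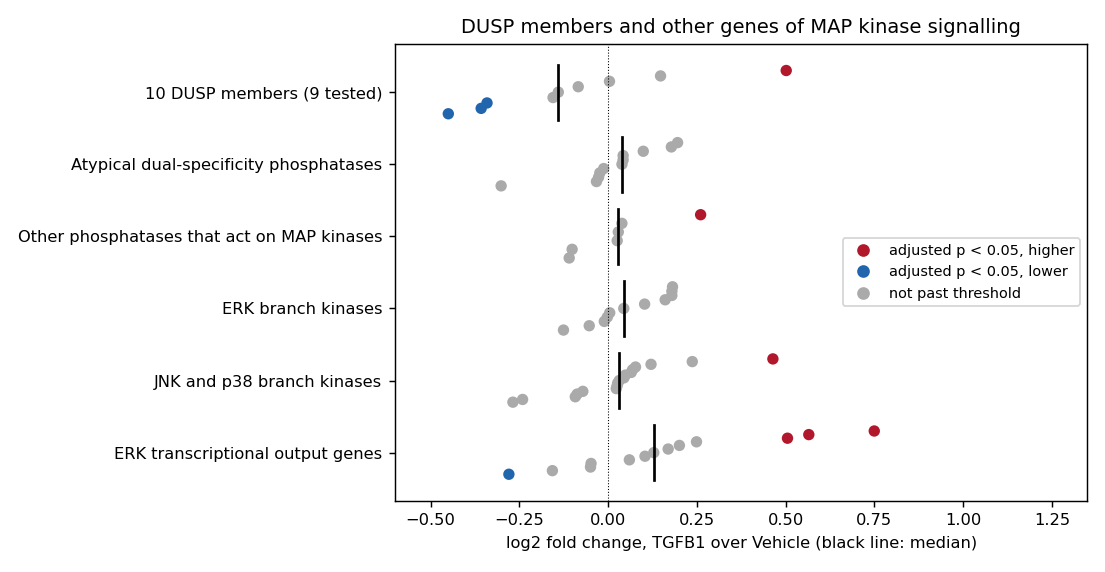
Log2 fold change of TGFB1 over Vehicle for each tested gene (points) of the DUSP family and of 5 other gene lists, with each list's median as a black line and colours for genes past an adjusted p of 0.05. The family has 3 genes lower and 1 higher, the ERK branch kinases have none past the threshold, and the ERK output genes have 3 higher and 1 lower. Of all tested genes 3.31% passed the threshold.

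Across the 6 libraries, genes with levels most like that of DUSP4 included VAPB, which encodes a protein of the endoplasmic reticulum membrane (Pearson r = 0.995), and ALPK1, which encodes an alpha-kinase (0.990), among 10560 genes with a mean of at least 5 CPM. Their log2 fold changes were -0.32 and -0.23, and that of ALPK1 did not pass the test (adjusted p = 0.0654), though it did with upper-quartile scaling (0.0443). VAPB passed (adjusted p = 0.0111) but not without TGFB1 replicate 2 (0.0591) or TGFB1 replicate 3 (0.0672). The level of DUSP7 was most like those of PSRC1, a gene of the mitotic spindle (r = 0.996), CFL1, the cofilin gene (0.993), and EIF4EBP1, which encodes a repressor of translation initiation (0.992). None of these 3 passed edgeR's test, at log2 fold changes from 0.12 to 0.27, and CFL1 passed with DESeq2 (adjusted p = 0.0376). These correlations rest on 6 libraries in which all genes share a library's depth and the division into groups, and serve as a description.

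Promoter letters were read in RefSeq windows (GRCh38.p14) for 8 of the 10 genes, in 9 windows. No window was read for DUSP4 or DUSP5, so DUSP6 is the only gene that fell among those covered. The 250 bases before the annotated start are shown for DUSP7, the member that rose, 5′ to 3′ on the gene's minus strand, at chr3:52056572-52056821. The capitals mark its match to GGCGCC, a GC-rich motif of SMAD proteins.
DUSP7: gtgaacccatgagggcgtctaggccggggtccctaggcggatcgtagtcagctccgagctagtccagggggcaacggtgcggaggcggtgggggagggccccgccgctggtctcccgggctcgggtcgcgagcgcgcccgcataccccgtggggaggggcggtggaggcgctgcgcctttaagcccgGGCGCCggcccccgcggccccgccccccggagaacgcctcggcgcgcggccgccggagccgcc

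This window of DUSP7 was rich in G+C, at 78.4%, where the median over all 35114 windows was 58.0%. It held GGCGCC and none of the other 8 motifs searched on both strands. GGCGCC was found in 16.4% of all windows and in 6 of the 9 member windows, those of DUSP1, DUSP2, DUSP7, DUSP14 and DUSP16 and 1 of the windows of DUSP10. The motif is made of G and C alone, and these shares were not adjusted for base composition. The windows of DUSP1, DUSP2, DUSP7, DUSP14 and DUSP16 held 74.0% to 82.8% G+C, and the matching window of DUSP10 held 55.2%. That of DUSP8 held 76.8% without a match to GGCGCC. The SMAD box GTCTG was in 13345 of all 35114 windows. It was in 3 of the 9 member windows, those of DUSP1, DUSP2 and DUSP16, which is no larger a share than over all windows. The full cyclic AMP response element TGACGTCA, in 1.65% of all windows, was in those of DUSP1 and DUSP8, and its part TGACG, which any full element contains, was in the same windows and in 21.2% of all. DUSP8 thus held a full element while its own reads numbered at most 2 per library. The TATA box TATAAA (10.7% of all windows) was in that of DUSP1, and the E-box CACGTG (6.35%) in those of DUSP1 and DUSP2. The AP-1 motif TGANTCA (6.57%), the ETS core CCGGAA (14.5%) and the NF-kB-like motif GGGANTTCC (1.59%) were in none of the 9, and the window of DUSP6, which fell, held none of the 9 motifs. A match is a run of letters and not a bound site, and a window without a match says nothing of a factor.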

How the data were processed

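RNA-seq was made from A375 cells in 2 groups of 3 libraries. The deposited table holds raw counts per Ensembl gene ID. Per the submitters' processing notes, the authors used cutadapt, TopHat2 2.1 and HTSeq on GRCh38. Annotation release, counting mode and strandedness: not given in the sources used here. Symbols were matched by gene ID (41445 of 58051 rows). Genes were kept with filterByExpr (minimum count 10, minimum total 15), which left 16690, scaled by TMM, and tested with the quasi-likelihood F-test of edgeR 4.0.16 (R 4.3.3, robust dispersion), with group as the sole term and Benjamini-Hochberg adjustment over all genes. CPM uses library totals, and RPKM the union of GENCODE 29 exons. The SE is the log2 fold change over the square root of F.

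The members, gene lists and motifs were chosen with earlier results of these data known. From each list beside the members, up to 4 genes past the threshold were named, or else the 2 most abundant, and for DUSP4 and DUSP7 the 3 genes with the most similar levels. A few genes that this rule named are not reported here. The test was tested on simulated data. Alternatives were other scalings and filters, a replicate block, DESeq2 1.42.0, limma-voom (limma 3.58.1) and leaving out each library. Same-numbered libraries did not deviate together (correlations -0.03, 0.04 and 0.01), so the numbers were not taken as pairs. Sequences are credited to GENCODE 29 and RefSeq.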

Additional observations from a re-analysis of the deposited data

How the results depend on the processing

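DUSP4, DUSP6 and DUSP7 kept their direction and call under all 8 other settings and all 6 omissions of a library, with log2 fold changes from -0.48 to -0.42, from -0.38 to -0.32 and from 0.40 to 0.58. The count of members called was 4 under the 8 other settings and 3 to 4 with a library left out, with 1 higher throughout and 2 to 3 lower. Over all genes, leaving out a library gave 365 to 923 called genes, 264 to 683 higher and 96 to 240 lower. The extremes were without TGFB1 replicate 1 (365), without Vehicle replicate 3 (923) and, for lower genes, without TGFB1 replicate 3 (96). The cause was not tested. With the replicate block 601 genes were called, and it changed the call of no member. Values near 0 turned sign. With upper-quartile scaling DUSP10 was at -0.00986. With 1 library left out, DUSP10 ran from -0.0641 (TGFB1 replicate 2) to 0.053 and was at -0.0229 without Vehicle replicate 1. DUSP9 ran from -0.0042 (TGFB1 replicate 3) to 0.185, and DUSP12 from -0.0125 (TGFB1 replicate 2) to 0.0833, with -0.0069 without Vehicle replicate 3. DUSP1 ran from -0.12 to -0.04, DUSP2 from -0.27 to -0.04, DUSP16 from -0.23 to -0.0054 and DUSP14 from 0.10 to 0.19, with no call in any omission. PDGFRB ran from -0.109 to 0.0657 (Vehicle replicate 1), with 0.0025 without TGFB1 replicate 1. With the longest transcript in place of all exons, the share of DUSP4 was 19.6% with TGFB1 and 24.5% with Vehicle and that of DUSP7 3.18% with TGFB1 and 2.06% with Vehicle.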
